A study of Mus musculus with 8 samples.

Results

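The genes described here are 10 components of the Notch signalling pathway: the receptors Notch1, Notch2 and Notch4, the ligands Jag1, Jag2, Dll1 and Dll4, and the target genes Hes1, Hey1 and Heyl. They were taken by symbol from the table of coding genes, in which 10 of 29844 rows belong to them, and 10 of 10 passed the filter on low counts. The fourth receptor, Notch3, is given with the other pathway genes. RNA sequencing had been done on cultured heart cells of E18.5 mouse embryos. All embryos were B6.Cg-Tg(HIST1H2BB/EGFP)1Pa/J, a mouse strain that carries a transgene for a histone H2B fused to a green fluorescent protein. Cells from digested hearts were kept for 4 days on a silicone (polydimethylsiloxane) of about 10 kPa (soft, 4 libraries) or about 150 kPa (stiff, 4 libraries). The library codes in the titles also have one stem for all soft libraries and another for all stiff libraries; what the stems stand for is not stated, and anything they mark cannot be told apart from the substrate. The study asked how this stiffness affects RNA levels in the cells.

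The labels call the cells embryonic cardiomyocytes and name no sorting step. Markers of cardiomyocytes were abundant, with 12 of 12 tested. Their summed level in CPM, the read count scaled by TMM to a common library total, averaged 29525 ± 8943 (SD, n = 4) in soft libraries and 30000 ± 4483 (SD, n = 4) in stiff ones. Soft 4 stood apart with 42907 CPM of these markers, where soft 1, soft 2 and soft 3 had 24451 to 25922 CPM. Markers of other cells were present too. The 14 fibroblast markers had the highest sums of these, from 7880 to 15070 CPM over the 8 libraries, the 10 epicardial markers had 847 to 1344 CPM and the 12 leukocyte markers 134 to 200.3 CPM. The 15 endothelial markers had sums of 412 to 565 CPM in soft libraries and 398 to 578 CPM in stiff libraries, with Cldn5 at 0 in all 8 libraries, and the 10 mural (smooth muscle and pericyte) markers had 2584 to 4120 CPM and 2400 to 3576 CPM. The highest mural markers were Acta2 and Tagln, with averages of 1571 and 839 CPM. Myh11, Rgs5 and Kcnj8 averaged 10.1, 4.11 and 0.831 CPM. Which cells the mural sum follows was not tested. Sums of unlike gene lists count reads and do not rank the cell types. Library totals ran from 27646471 to 34693673 counts. Of 10 library measures (totals, genes detected, scaling factors and the sums of 7 marker lists) none passed a two-sided exact permutation test between substrates, with a lowest p of 0.143 (0.984 after adjustment over the 10) where 4 against 4 allows 0.0286. Whether the 4 libraries of a group are separate cultures is not stated in the labels, so that p-values refer to the spread of these libraries alone, which may be technical. In RNA from mixed cells, fewer cells of a type and less RNA per cell cannot be told apart.

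Notch receptors are single-pass membrane proteins that are activated by ligands of the Jagged and Delta-like families on neighbouring cells. Ligand binding and endocytosis expose the receptor to ADAM proteases and then to gamma-secretase, and the freed intracellular domain joins the DNA-binding protein RBPJ and a Mastermind coactivator in the nucleus. Genes of the Hes and Hey families, which encode basic helix-loop-helix repressors, are classic targets of that complex. In the developing heart the pathway is known for its part in endocardium, valves, trabeculation and the vessels.

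RefSeq (build GRCm38.p6) gave promoter windows for 7 of the 10 members, the 3 receptors and 4 ligands; Hes1, Hey1 and Heyl had no entry. The 250 bases before the start are shown for the receptor with the most reads (Notch2), the one with the fewest (Notch4), the ligand with the most reads (Jag1) and the ligand of arterial endothelium (Dll4), to set genes read at very different depth side by side. The start is that of the promoter entry. For Notch4 and Jag2 it lies inside the gene span given below, as does a start of Dll1. Capitals mark the GC box, GGGCGG or its complement CCGCCC. The stretches are chr3:98013288-98013537 (plus strand) for Notch2, chr17:34564045-34564294 (plus) for Notch4, chr2:137116521-137116770 (minus) for Jag1 and chr2:119325534-119325783 (plus) for Dll4.
Notch2: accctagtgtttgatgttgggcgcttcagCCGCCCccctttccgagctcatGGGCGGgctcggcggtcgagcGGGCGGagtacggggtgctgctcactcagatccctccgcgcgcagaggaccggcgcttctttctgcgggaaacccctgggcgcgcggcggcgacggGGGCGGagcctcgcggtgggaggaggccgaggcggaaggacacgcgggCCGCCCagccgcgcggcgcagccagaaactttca
Notch4: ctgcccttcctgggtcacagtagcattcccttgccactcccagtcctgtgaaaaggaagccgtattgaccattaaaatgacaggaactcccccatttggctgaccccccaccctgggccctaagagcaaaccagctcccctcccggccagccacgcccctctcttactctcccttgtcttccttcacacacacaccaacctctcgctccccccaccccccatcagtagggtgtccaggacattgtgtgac
Jag1: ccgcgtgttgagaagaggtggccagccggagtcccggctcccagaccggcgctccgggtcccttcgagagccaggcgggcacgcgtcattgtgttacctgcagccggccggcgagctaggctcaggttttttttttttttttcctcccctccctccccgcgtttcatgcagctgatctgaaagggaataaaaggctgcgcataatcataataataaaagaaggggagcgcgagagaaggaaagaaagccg
Dll4: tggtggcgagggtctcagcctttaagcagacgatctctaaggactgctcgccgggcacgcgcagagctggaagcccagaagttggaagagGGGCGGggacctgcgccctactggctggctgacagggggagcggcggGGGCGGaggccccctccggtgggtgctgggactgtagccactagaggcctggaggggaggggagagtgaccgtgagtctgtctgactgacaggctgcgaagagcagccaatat
The Notch2 stretch held 5 GC boxes and 34 CpG pairs, with 72% G and C. The Notch4 stretch held 0 GC boxes and 4 CpG pairs, against a median of 6 CpG pairs over 32851 such stretches of all genes. Jag1 had 0 GC boxes and 20 CpG pairs, and Dll4 had 2 GC boxes and 14 CpG pairs. Of the stretches not shown, that of Notch1 had 5 GC boxes and 16 CpG pairs. Jag2, with far fewer reads than Notch2, had 5 GC boxes, 54 CpG pairs and 87.2% G and C. The Dll1 stretches had 0 GC boxes, with 21 and 13 CpG pairs. A GC box on either strand stood in 4 of the members' 8 stretches (Dll1 has a pair of starts) and in 32.7% of all stretches. The RBPJ core letters TGGGAA, searched on both strands, were in 0 of the 8 and in 21.6% of all stretches, and TATAAA in 0 of the 8 and in 12.4%. These matches describe the letters of the stretches only.

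None of the 10 members passed the test between the substrates. Their levels overlapped between soft and stiff in 10 of 10 cases, while 1.29% of the 14059 tested coding genes had groups that did not overlap. By edgeR's quasi-likelihood test with Benjamini-Hochberg adjustment over all tested genes, 0 members rose and 0 fell on stiff, with an adjusted p of 0.99997 for each; 0% of all tested genes were called. At an unadjusted p under 0.05 there were 0 members, against 0.925% of all tested genes (130 of 14059). Evenly spread p-values, with no gene differing, would put a fraction of about 0.05 of the genes there. Low p-values were thus much scarcer in this fit than that, for a reason that was not tested. The 0 calls cannot be read as equal levels on both substrates. DESeq2 and limma-voom called 0 members as well. In the edgeR estimates 4 members were higher and 6 lower on stiff, with a median log2 fold change (stiff over soft) of -0.06, beside -0.01 over all tested genes. Without soft 4 the members split into 6 higher and 4 lower, with a median of 0.033 and 0 calls. The panels of levels by library show how far single libraries spread within a substrate.

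**Figure D1:**
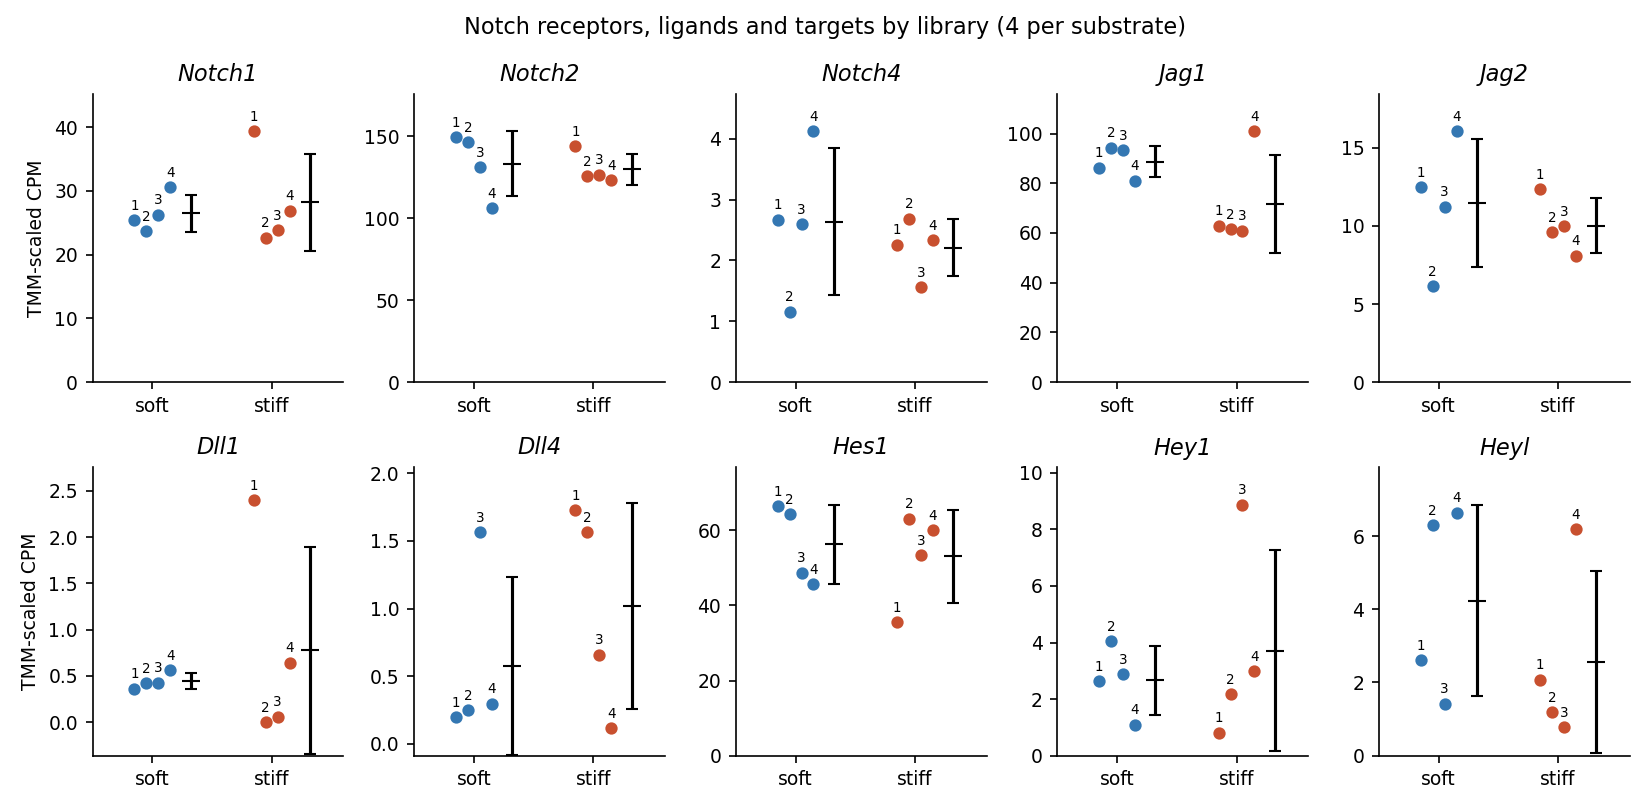
TMM-scaled CPM (vertical axis, 1 scale per panel) of the 10 members in the soft and stiff libraries; each dot is a library with its number, and the black bar gives the mean ± SD of 4 libraries. Soft and stiff dots overlap in every panel, and in Jag1 the library stiff 4 stands at 101 CPM above 3 stiff libraries between 60.9 and 63.0 CPM.

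Notch2, a receptor of broad expression at chromosome 3 from 98013538 to 98150367, collected the most reads of the 10, with 31803 in all. It stood at 149, 146, 131 and 106 CPM in soft 1 to 4 and at 144, 126, 127 and 123 CPM in stiff 1 to 4. The highest and the lowest of the 8 values were both soft libraries, soft 1 and soft 4, and the stiff values lay between them. The soft libraries averaged 133 ± 19.8 CPM (SD, n = 4) and the stiff libraries 130 ± 9.48 CPM (SD, n = 4), a log2 fold change of -0.04 (SE 0.17). This was the narrowest interval among the members: the unadjusted 95% interval ran from 0.763 to 1.24 times the soft level.

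Notch1, at chromosome 2 from 26457902 to 26503822, encodes the receptor best known from endothelium, endocardium and immature cardiomyocytes. Its levels were 25.4, 23.7, 26.3 and 30.6 CPM in soft 1 to 4 and 39.4, 22.7, 23.9 and 26.9 CPM in stiff 1 to 4. Stiff 1 was the highest of the 8 libraries and stiff 2 the lowest, so that the soft range lay inside the stiff range. The log2 fold change was 0.09 (SE 0.24), and without stiff 1 it went to -0.11. Stiff 1 was also the library with the highest score of the endothelial markers, 0.62 on the log2 scale above their mean, with 14 of 15 markers in the score. By their sum it stood less apart, with 578 CPM in stiff 1, 569 CPM in stiff 4 and 565 CPM in soft 4. Pearson's r of Notch1 with the score was 0.69 (Spearman's rho 0.31), and 0.05 without stiff 1 and stiff 3. The part of endothelial cells in the Notch1 level was not tested.

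Notch4, a receptor found mainly in endothelial cells, lies at chromosome 17 from 34564286 to 34588543. It had 33 to 125 counts per library, or 2.67, 1.16, 2.60 and 4.12 CPM in soft 1 to 4 and 2.26, 2.69, 1.56 and 2.34 CPM in stiff 1 to 4. Both extremes were soft libraries, soft 4 and soft 2, and the 4 stiff values fell within the soft range. The log2 fold change was -0.25 (SE 0.76), and the 95% interval reached from 0.273 to 2.57 times the soft level. The estimate rested on soft 4 and soft 2: it was 0.053 without the former and -0.50 without the latter.

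Jag1 had the lowest unadjusted p of the members, 0.130, which ranked 626th among 14059 genes. It encodes the Jagged ligand whose loss causes the heart and vessel defects of Alagille syndrome, and lies at chromosome 2 from 137081451 to 137116520. In soft 1 to 4 it stood at 86.3, 94.4, 93.2 and 81.1 CPM, and in stiff 1 to 4 at 63.0, 61.5, 60.9 and 101 CPM. The first 3 stiff libraries were below every soft library, while stiff 4 was above every one of them. The soft mean was 88.7 ± 6.22 CPM (SD, n = 4), the stiff mean 71.6 ± 19.6 CPM (SD, n = 4) and the log2 fold change -0.31 (SE 0.19). Without stiff 4 the log2 fold change was -0.52, with an unadjusted p of 0.00966 and an edgeR adjusted p of 0.99998. That p leaves out the library that went against the first 3. It was the 1 unadjusted p under 0.05 among 80 leave-one-out estimates of the members. Over all genes, the fit without stiff 4 had 272 of 14352 at an unadjusted p under 0.05. The Jag1 estimate was below 0 in each of the 8 fits that left out 1 library and in each of 10 other settings.

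The second Jagged ligand, Jag2 (chromosome 12 from 112907803 to 112929812), stood at 12.5, 6.16, 11.2 and 16.1 CPM in soft 1 to 4 and at 12.3, 9.60, 9.99 and 8.09 CPM in stiff 1 to 4. Soft 2 and soft 4 were the lowest and the highest library, the same 2 as for Notch4, and the stiff values fell between them. The log2 fold change was -0.20 (SE 0.35), going to 0.013 without soft 4 and to -0.40 without soft 2.

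The Delta-like ligands were close to the limit of detection. Dll4, the ligand of arterial endothelium and sprouting tip cells (chromosome 2 from 119325784 to 119335666), had 6, 7, 44 and 9 counts in soft 1 to 4 and 49, 46, 22 and 4 counts in stiff 1 to 4. These are 0.198, 0.246, 1.57 and 0.297 CPM on soft and 1.73, 1.57, 0.660 and 0.117 CPM on stiff. Libraries with over 40 counts and libraries under 10 counts occurred on both substrates. The log2 fold change was 0.81 (SE 1.35), which went to 2.02 without soft 3 and to 0.43 without stiff 1. Dll1, a ligand known from somites and lymphoid tissue (chromosome 17 from 15367354 to 15376932), had 11, 12, 12 and 17 counts in soft 1 to 4 against 68, 0, 2 and 22 in stiff 1 to 4. The 4 soft libraries were within 0.362 and 0.561 CPM, and the stiff libraries lay both above and below them, with 2.40 CPM in stiff 1. The 0 counts of stiff 2 allow a level of up to 0.102 CPM (3 counts of its scaled total, counting error only). The log2 fold change of 0.80 (SE 1.56) turned to -0.90 without stiff 1 and to -1.11 with limma-voom.

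Hes1, a repressor that many signals besides Notch also induce (chromosome 16 from 30065357 to 30067796), had the most reads of the target genes. It stood at 66.3, 64.2, 48.7 and 45.6 CPM in soft 1 to 4 and at 35.6, 63.1, 53.4 and 60.0 CPM in stiff 1 to 4. Stiff 1, the library with the highest Notch1 level, had the lowest Hes1 level, and the other 3 stiff libraries lay within the soft range. A soft mean of 56.2 ± 10.6 CPM (SD, n = 4) and a stiff mean of 53.0 ± 12.3 CPM (SD, n = 4) gave a log2 fold change of -0.08 (SE 0.22), which was 0.066 without stiff 1.

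Hey1, a target in endocardium, atrial muscle and arteries (chromosome 3 from 8663359 to 8667038), stood at 2.63, 4.05, 2.88 and 1.09 CPM in soft 1 to 4 and at 0.811, 2.18, 8.88 and 2.98 CPM in stiff 1 to 4. The stiff libraries held both extremes, with 23 counts in stiff 1 and 296 in stiff 3, a span of 10.9-fold in CPM. Its log2 fold change was 0.48 (SE 0.76), and without stiff 3 it was -0.42. Stiff 3 had the lowest score of the endothelial markers, 0.59 on the log2 scale below their mean, and stiff 1 the highest; the part of these cells in the Hey1 level was not tested.

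Heyl, a target typical of vascular smooth muscle (chromosome 4 from 123233556 to 123249870), was at 2.60, 6.30, 1.42 and 6.63 CPM in soft 1 to 4 and at 2.08, 1.19, 0.780 and 6.19 CPM in stiff 1 to 4. Levels above 6 CPM were found in soft 2, soft 4 and stiff 4, and the other 5 libraries were at 2.60 CPM or lower. The log2 fold change was -0.72 (SE 0.76), with estimates from -1.65 without stiff 4 to -0.42 without soft 4. Of those 3 libraries, soft 4 had a mural marker score of 0.49, soft 2 of 0.14 and stiff 4 of -0.16, while soft 3, with the highest score of 0.54, stood at 1.42 CPM of Heyl; the part of mural cells in the Heyl level was not tested.

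**Figure D2:**
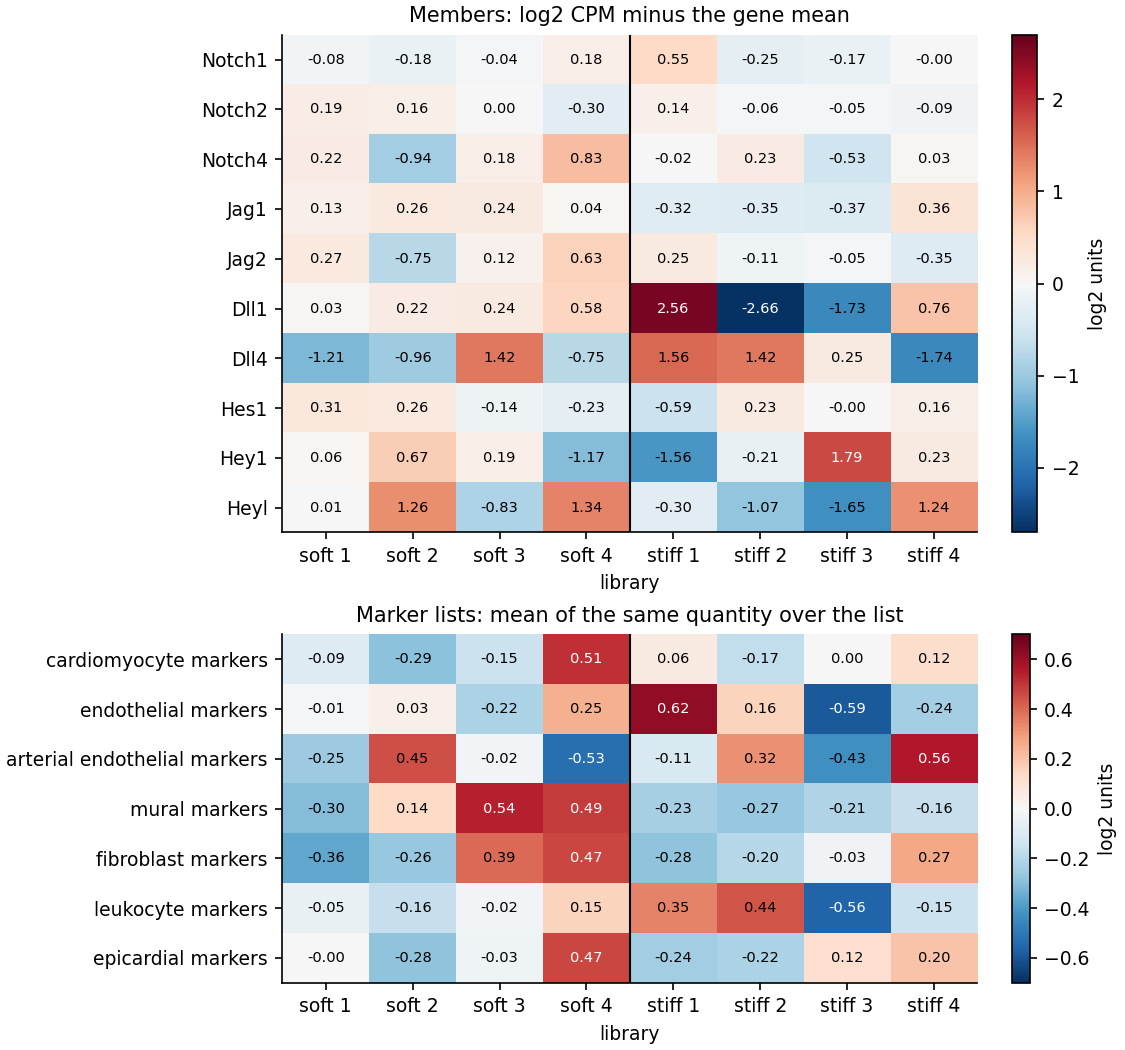
Log2 CPM of each member minus its mean over the 8 libraries (upper panel), and the mean of the same quantity over 7 lists of cell type markers (lower panel), for soft 1 to 4 and stiff 1 to 4 left and right of the black line; red is above and blue below the mean, on a separate colour scale per panel. Stiff 1 has the highest Notch1 (0.55), Dll1 (2.56) and endothelial score (0.62) and the lowest Hes1 (-0.59) and Hey1 (-1.56).

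How closely the fold change was estimated differed widely between members. The unadjusted 95% interval reached 1.28-fold to either side of the estimate for Notch2, 1.33-fold for Jag1, 1.38-fold for Hes1 and 1.43-fold for Notch1, beside a median of 1.51-fold over all tested genes. For Jag2 it reached 1.67-fold. It reached 3.05-fold for Heyl, 3.06-fold for Hey1 and 3.07-fold for Notch4, and 7.28-fold and 9.84-fold for Dll4 and Dll1. These widths describe the estimates and do not give the differences that the test could call. By edgeR over all 14059 tested genes, even the lowest unadjusted p, 0.000356, had an adjusted p of 0.99997. The variance of the counts within a substrate was 10.6 (Notch4) to 79.9 (Jag1) times their mean, where counting error alone would give 1. The plot of fold changes shows these intervals, all of which include 0 for the 10 members.

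**Figure D3:**
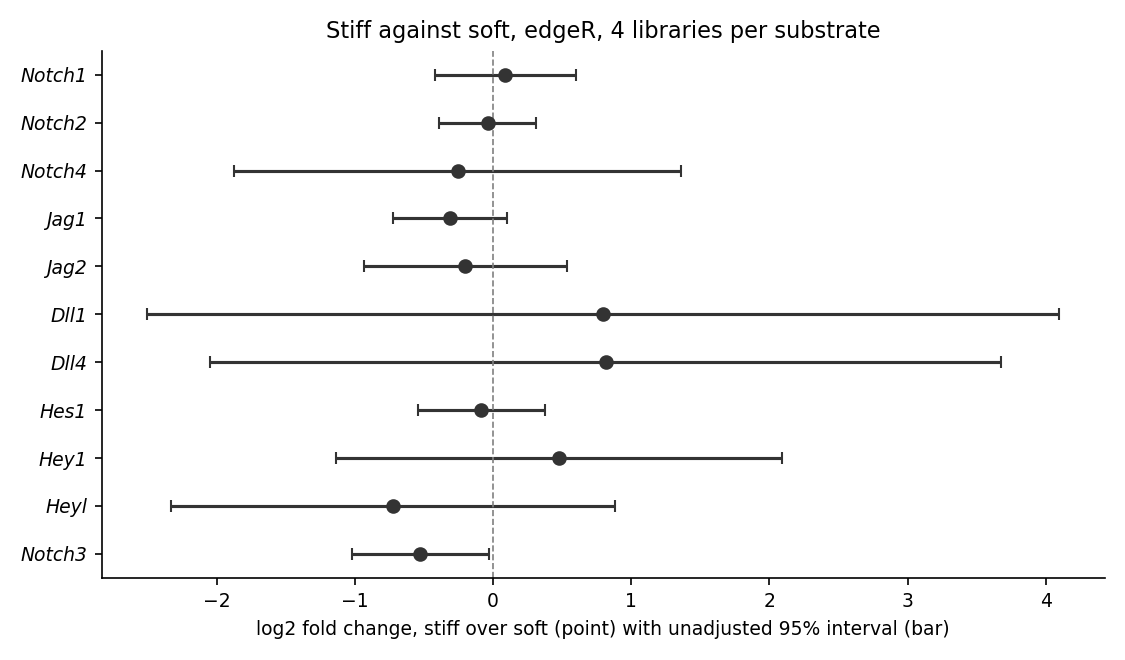
Log2 fold change of stiff over soft (points) with its unadjusted 95% interval (bars) for the 10 members and Notch3, from edgeR with 4 libraries per substrate; the dashed line marks 0. The intervals of Notch2, Jag1, Hes1 and Notch1 are short, those of Dll1 and Dll4 span several log2 units, and the interval of Notch3 ends at -0.03.

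**Figure D4:**
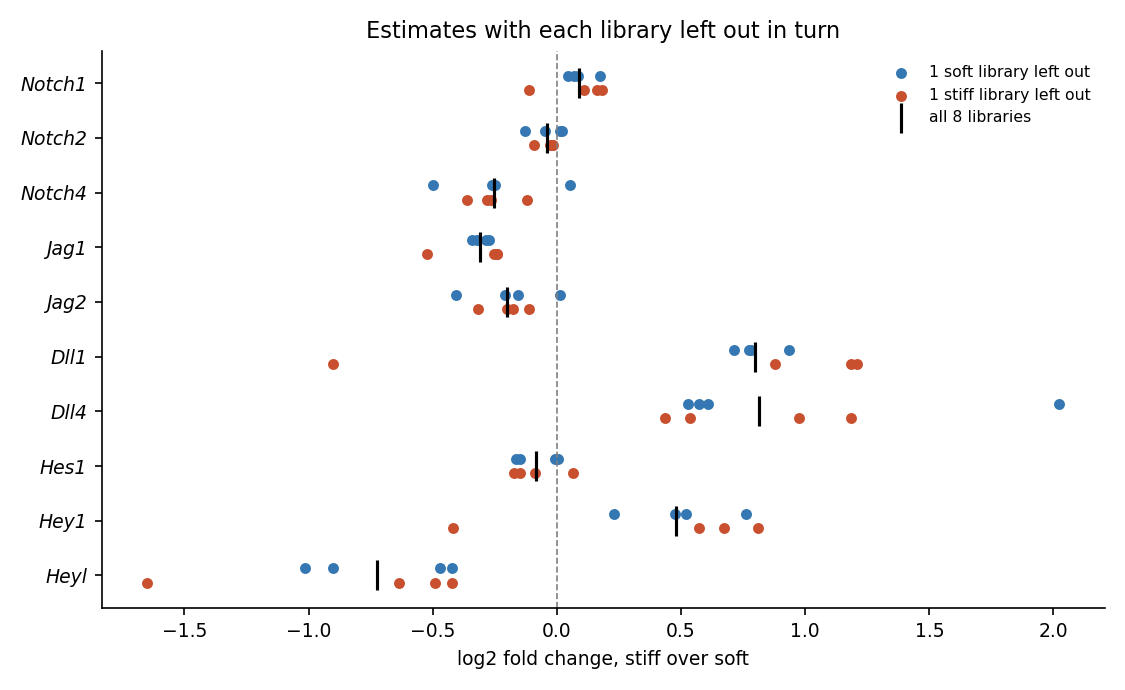
Log2 fold change of stiff over soft for each member with all 8 libraries (black bar) and with 1 soft (blue) or 1 stiff (red) library left out. The sign changes in at least 1 of the 8 fits for 7 members, and Jag1, Dll4 and Heyl keep theirs.

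The other genes of the pathway gave no call either. Of 58 genes on the list, 53 were tested, 0 rose and 0 fell on stiff, with 25 estimates higher and 28 lower and a median log2 fold change of -0.02. Dll3, Hes2 and Hes5 had 0 counts in all 8 libraries. Among receptors and ligands outside the 10, Notch3, the receptor of mural cells (chromosome 17 from 32120820 to 32166896), had the lowest unadjusted p of the 53. It stood at 44.9, 36.1, 35.3 and 55.5 CPM in soft 1 to 4 and at 38.7, 29.6, 22.8 and 28.3 CPM in stiff 1 to 4. Only stiff 1 reached into the soft range. Its log2 fold change was -0.52 (SE 0.23) with an unadjusted p of 0.0391 and an adjusted p of 0.99997. Sums of the mural markers averaged 3296 ± 668 CPM for soft and 2898 ± 510.4 CPM for stiff libraries. They were thus lower in the mean too (two-sided exact permutation p = 0.429, n = 4 each). Estimates were lower on stiff for 9 of 10 mural markers and for 7300 of all 14059 tested genes, with 0 called. The mural score was -0.30, 0.14, 0.54 and 0.49 in soft 1 to 4. In stiff 1 to 4 it was -0.23, -0.27, -0.21 and -0.16. The part of mural cells in the Notch3 level was not tested. Dlk1, an imprinted ligand-like protein, had a log2 fold change of 0.24 (SE 0.38).

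Enzymes that add sugars to the receptors had 4 higher and 3 lower estimates. Poglut1, which adds O-glucose, averaged 53.4 ± 3.32 CPM (SD, n = 4) in soft and 61.5 ± 7.71 CPM (SD, n = 4) in stiff libraries and was the 1 gene of the 53 without overlap, where the background is 1.29%; its log2 fold change was 0.20 (SE 0.18). Gxylt1, which extends that glucose with xylose, had 0.41 (SE 0.30), and Eogt, which adds N-acetylglucosamine, -0.15 (SE 0.20). Of 9 genes of receptor cleavage 4 were higher and 5 lower in their estimates. The protease gene Adam10 averaged 243 ± 9.40 CPM in soft and 284 ± 35.8 CPM in stiff libraries (log2 fold change 0.22, SE 0.16), and Adam17 had -0.03 (SE 0.17). Psen2, a catalytic subunit of gamma-secretase, had -0.32 (SE 0.25). None of these passed the test.

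Ubiquitin ligases that act on the ligands had 3 higher and 2 lower estimates. Mib1, which drives endocytosis of Jagged and Delta-like proteins, averaged 420.1 ± 102 CPM (SD, n = 4) in soft and 430.2 ± 43.4 CPM (SD, n = 4) in stiff libraries. The log2 fold changes were 0.03 (SE 0.19) for Mib1, -0.13 (SE 0.25) for Mib2 and 0.34 (SE 0.76) for Neurl3. In the nuclear complex 8 of 13 estimates were higher. Rbpj, the DNA-binding subunit, averaged 217 ± 48.5 CPM in soft and 216 ± 22.2 CPM in stiff libraries (log2 fold change -0.01, SE 0.19). The corepressor gene Ncor1 had 0.05 (SE 0.19) and the acetyltransferase gene Kat2a 0.29 (SE 0.31).

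Genes of receptor trafficking and turnover had 4 higher and 8 lower estimates among 12 tested. Nedd4, a ubiquitin ligase with many substrates, averaged 2547 ± 411 CPM (SD, n = 4) in soft and 2602 ± 303 CPM (SD, n = 4) in stiff libraries (log2 fold change 0.03, SE 0.18). Itch, a related ligase, had 0.17 (SE 0.19), the Deltex gene Dtx3 -0.22 (SE 0.23), and Nrarp, a Notch target that dampens the pathway, -0.38 (SE 0.42). Of 6 further Hes and Hey genes 3 were tested and all 3 had lower estimates on stiff. Hey2, known from ventricular muscle, averaged 13.2 ± 4.19 CPM in soft and 10.9 ± 6.37 CPM in stiff libraries (log2 fold change -0.28, SE 0.42). Hes6 had -0.03 (SE 0.34) and Hes7 -0.18 (SE 1.65), none of them past the test.

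**Figure D5:**
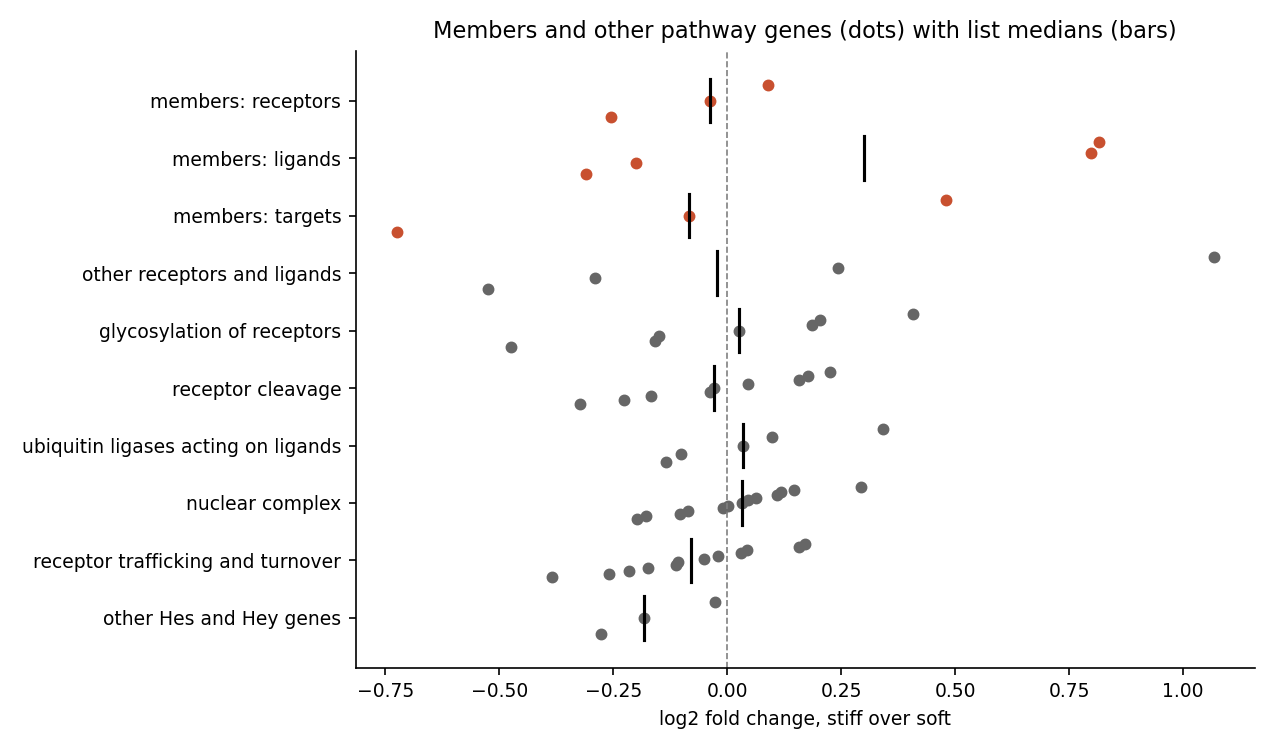
Log2 fold change of stiff over soft for the tested members (red dots) and the other tested pathway genes (grey dots), 1 row per list, with the list median as a black bar and the dashed line at 0. List medians lie between -0.18 (other Hes and Hey genes, 3 tested) and 0.30 (ligands among the members, 4 tested), and dots fall on both sides of 0 in 9 of the 10 rows.

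Genes whose levels ran most like those of the best covered receptor, ligand and target were ranked by Pearson's r of log2 CPM over the 8 libraries, as a description. For Notch2 the nearest of 14002 named genes were Dnajc7 (r = 0.98, Spearman's rho = 0.95), Mfap3 (0.97 and 0.98) and Cog3 (0.97 and 0.90). Jag1 was followed most closely by Chst3 (r = 0.97, rho = 0.83), a chondroitin sulfotransferase gene, by Gata6 (0.95 and 0.86), a cardiac transcription factor gene, and by Minpp1 (0.95 and 0.90). For Hes1 they were Syap1 (r = 0.94, rho = 0.90), Qrich1 (0.93 and 0.86) and Adgrg2 (0.93 and 0.83). An r above 0.9 was reached by 57 genes for Notch2, 22 for Jag1 and 17 for Hes1. The points share their libraries and scaling, and 8 points leave room for high values among so many genes.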

How the data were processed

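RNA sequencing was analysed for 8 libraries, 4 per substrate, grouped by the substrate label. The authors deposited raw read counts, whole numbers per Ensembl gene and library. Per the submitters' processing notes, the tools included HTSeq 0.6.1, Bowtie2, TopHat2 2.0.14 and FastQC 0.11.2, and the build was GRCm38; the notes also list edgeR, DESeq2, Cufflinks and TopHat, and give no roles. How strand was handled is not given in the sources used here. A noncoding table was not used. Symbols came from a table of Ensembl IDs, which matched 29150 of 29844 rows.

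The analysis used edgeR 4.0.16 under R 4.3.3. The function filterByExpr (minimum count 10, minimum total 15) left 14059 genes. These were scaled by TMM and compared between substrates by the quasi-likelihood F test with robust dispersions and no covariate. Benjamini-Hochberg adjustment ran over all tested genes, with a call at 0.05. Standard errors and 95% intervals, unadjusted, came from the same fit. Log2 CPM used a prior count of 2, and a marker score is the mean over a list of log2 CPM minus each gene's mean. Transcript lengths were not used, so levels are compared between libraries, not between genes. Where CPM of different genes or marker lists stand side by side, they give shares of reads, not of molecules. Totals ran from 27646471 to 34693673 counts per library. Reads are not independent molecules, and overlapping or antisense genes cannot be told apart without strand.

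The alternatives were other scaling factors, no filter, at least 1 CPM in 4 libraries, DESeq2 1.42.0, limma-voom (limma 3.58.1), the replicate number as a block, and each library left out in turn. Every member was named; of each further pathway list, the 2 genes with the lowest p and the 2 with the highest level were named, with Notch3; some items are not reported here. Up to 3 genes were named for likeness to each of 3 members. The members, lists and rules were chosen with earlier results of these data known. The replicate numbers 1 to 4 follow the sample order and equal the last digit of the library codes on both substrates; the labels do not say that a shared digit marks a shared litter, culture or day. Deviations from the group means correlated at 0.104 to 0.305 in the 4 pairs of equal number, all above 0.1, and at -0.228 to 0.130 in the other 12, so the libraries may be paired; the fit reported has no block. The fit was tested on simulated data.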

Additional observations from a re-analysis of the deposited data

Results flagged for a closer look

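For the members and the named pathway genes, 64 groups of 4 libraries were searched for a library far from the rest (Dixon's test at 95%), and 2 groups held one. Chance gives about 1 in 20 groups, so 2 of 64 is below that rate. Jag1 stood at 101 CPM in stiff 4, against 60.9 to 63.0 CPM in the other stiff libraries. Dll4 stood at 1.57 CPM in soft 3, where soft 1, soft 2 and soft 4 had 0.198 to 0.297 CPM. Without the library concerned, the log2 fold change of stiff over soft was -0.52 for Jag1 and 2.02 for Dll4.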

How the results depend on the processing

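No member and no other pathway gene was called under any of the 18 alternatives. Over all coding genes 0 were called in 17 of them, and 8 with limma-voom and the number as a replicate block, none of them a member. Other scaling factors (DESeq2, upper quartile or totals alone) left the split of the members at 4 higher and 6 lower, and moved the median of all genes by less than 0.01. A filter of at least 1 CPM in 4 libraries removed Dll1 and Dll4 from the test. The fold change of Dll1 was of the opposite sign with limma-voom (-1.11), with the replicate block in edgeR (-1.02) and with the replicate block in DESeq2 (-1.19). Neurl3 turned to -0.11, -0.12 and -0.11 in the same 3 settings, and Rbpj to 0.016, 0.016 and 0.025 in these and to 0.011 with limma-voom and the replicate block. The cause was not tested. With 1 library left out, the median log2 fold change of the members ran from -0.18 to 0.033, reached without stiff 1 and without soft 4. Single members ran from -0.11 to 0.18 for Notch1, from -0.13 to 0.021 for Notch2, from -0.50 to 0.053 for Notch4, from -0.40 to 0.013 for Jag2, from -0.90 to 1.21 for Dll1, from -0.17 to 0.066 for Hes1 and from -0.42 to 0.81 for Hey1. Among the named pathway genes the ranges that crossed 0 were -0.093 to 0.066 for Adam17, -0.056 to 0.20 for Mib1, -0.26 to 0.017 for Mib2, -0.59 to 0.67 for Neurl3, -0.088 to 0.20 for Ncor1, -0.14 to 0.11 for Rbpj, -0.058 to 0.10 for Nedd4, -0.42 to 0.24 for Hes6 and -1.31 to 0.97 for Hes7. The fit with the replicate number as a block, whose basis is given with the processing, changed no call of a member or another pathway gene. Unadjusted p-values did move with the block in edgeR. That of Jag1 went from 0.130 to 0.0570 and that of Notch3 from 0.0391 to 0.0186. That of Notch1 went the other way, from 0.714 to 0.802. Of the 8 libraries, 6 correlated best with the one of their own number. With the block, edgeR had 360 genes at an unadjusted p under 0.05, against 130 without it, and called 0 in both. Dll1 and Dll4 had 144 and 187 counts over all 8 libraries, and the variance of their counts within a substrate was 31.4 and 19.4 times the mean, more than counting error alone gives.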

Other observations

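Pairs of members ran together over the 8 libraries to very different degrees. Among 45 pairs of members, Pearson's r of log2 CPM ran from -0.88 to 0.84, given as a description of points that share library and scaling. The receptor Notch1 and the target Hes1 had the lowest value, -0.88 (Spearman's rho -0.74), which was -0.31 without soft 4 and stiff 1, so it rests on those libraries. Notch1 and the ligand Dll1 had the highest, 0.84 (rho 0.90), and 0.82 without the same libraries, although Dll1 had few counts. Notch4 and Jag2 stood at 0.82 (rho 0.60), which went to 0.19 without soft 2 and soft 4.

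Against the 7 marker scores, the lowest of 70 values was that of Hey1 with the endothelial score, at -0.91 (rho -0.86), and -0.65 without stiff 1 and stiff 3. Hey1 with the leukocyte score stood at -0.85 (rho -0.90), and at -0.97 without stiff 2 and stiff 3. Jag2 with the score of arterial endothelial markers stood at -0.81 (rho -0.83), and at -0.62 without soft 2 and stiff 4. Of these 5 markers, Nrp1 alone averaged 677 CPM, above the sum of the 15 endothelial markers in every library (398 to 578 CPM). That compares reads, with transcript length left aside. Efnb2 averaged 119 CPM, and Sox17, Bmx and Gja4 2.42 to 4.39 CPM. Which cells the arterial score follows was not tested. Notch2 stood at -0.80 (rho -0.81) with the fibroblast score, and at -0.81 without soft 3 and soft 4. Notch4, known as an endothelial receptor, stood at 0.34 (rho 0.33) with the endothelial score. Its r was higher with the cardiomyocyte (0.66), epicardial (0.57), leukocyte (0.55) and fibroblast (0.49) scores. With the mural and arterial endothelial scores it was lower, at 0.28 and -0.40. Without soft 2 and soft 4 the cardiomyocyte and epicardial values were -0.47 and -0.41.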
